A study of Mus musculus with 4 samples.

Results

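During testis determination, pre-supporting cells of the XY gonad become Sertoli cells, and a set of genes that the progenitors express is turned down as they do so. Here 91 of the 21495 genes of a mouse single-cell RNA-seq table were taken as this set. They were chosen by measured values in the XY control sample at E11.5 (E, embryonic day). UMIs (unique molecular identifiers, each standing for 1 captured transcript) were summed over the 1641 cells that the authors named Bipotential progenitors, called pre-supporting cells here, and over the 752 cells they named Supporting, called Sertoli cells here. A gene was a member if it had at least 20 CPM (the level of a gene, its UMIs scaled to the same fixed total in every group of summed cells) in pre-supporting cells and at least 3 times the CPM of Sertoli cells, with 0.5 UMI added to both sums. Foxl2, Fst, Wnt4, Rspo1, Bmp2 and Lhx9, and genes for globins, ribosomal proteins and mitochondrial transcripts, could not be chosen. Of the 6811 genes that reached 20 CPM and could be chosen, 1.34% were members. The fall itself is therefore a description of how the genes were picked, and what follows is how the 91 genes were read in the samples and cell types that the choice did not use.

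The samples were gonads with mesonephros of mice, analysed by 10x 3′ single-cell RNA-seq, and asked what the loss of the miR-17~92 microRNA cluster does to cells of the early gonad. The samples called the E11.5 KO and the E11.75 KO, both XY, came from embryos made by tetraploid complementation from G4 embryonic stem cells (mESC) in which CRISPR/Cas9 had deleted the cluster on both alleles. The XY control at E11.5 came from embryos of the unmodified G4 line, and the XX control at E11.5 from breeding, not from mESC. The labels give the strain C57BL/6 x 129S4/SvJae for all 4 samples, and 3 to 4 pairs of gonads were pooled for each. There was no XX KO sample and no XY control at E11.75, so genotype and age cannot be told apart in the comparison of the E11.75 KO with the XY control, and sex and the origin of the embryos cannot be told apart in that of the XX with the XY control. With 1 sample per group no test between groups was possible, and the 95% intervals given below cover counting error only.

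The 4 samples held 3669 to 23527 cells. Median UMIs per cell were 3893 in the XY control, 4763 in the E11.5 KO, 3922 in the E11.75 KO and 15509 in the XX control, which stood apart in depth. All samples but the E11.75 KO had 2 runs, counted as 1 sample, and 285 barcodes occurred in 2 or more samples, 3 of them in pre-supporting or Sertoli cells. Pre-supporting cells numbered 1641 in the XY control, 1084 in the E11.5 KO, 924 in the E11.75 KO and 352 in the XX control, and the cells named Supporting numbered 752, 24, 168 and 2. Sox9, the transcription factor that drives Sertoli differentiation, stood in Sertoli cells at 944 CPM in the XY control, 555 CPM in the E11.5 KO and 790.0 CPM in the E11.75 KO. The XX pair of cells goes against its label, with 1 UMI of Sox9, which is 20.75 CPM (0.525 to 115.6), and Wnt4 at 954 CPM (699 to 1273) against 99.7 CPM in XY control Sertoli cells. Genes of the ovarian route were also higher in the KO cells named Supporting than in those of the XY control, with Wnt4 at 621 CPM in the E11.5 KO and 371 CPM in the E11.75 KO, and Fst at 52.9 and 145 CPM against 4.09 CPM. In the XX pair of cells Amh, Dhh, Sox8 and Ptgds were at 0, but a count of 0 allows up to 62.2 CPM there. In pre-supporting cells Sox9 stood at 199.6, 20.1, 88.0 and 9.29 CPM in the XY control, E11.5 KO, E11.75 KO and the XX control. The summed level of the 12 Sertoli markers in pre-supporting cells was 599, 203, 321 and 267 CPM in the same order, and that of 8 pre-supporting markers was 2959, 2824, 3094 and 3154 CPM. The host transcript of the cluster, Mir17hg, stood in pre-supporting cells at 9.39 CPM in the XY control and 7.96 CPM in the XX control, and at 99.02 CPM in the E11.5 KO and 107.9 CPM in the E11.75 KO. The table counts the transcript as a whole, and where its reads lie relative to the deleted part was not examined, so these values do not check the deletion.

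Pre-supporting cells arise from the coelomic epithelium and can become Sertoli cells in the testis or granulosa cells in the ovary. In XY gonads the Y-linked gene Sry is switched on in them for a short time and activates Sox9, after which genes of the progenitor state and of the ovarian route are turned down. MicroRNAs of the miR-17~92 cluster bind by their seed, bases 2 to 8, to matching sites in the 3′ UTR (untranslated region) of messenger RNAs and lower their stability or translation.

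The 6 mature microRNAs of the cluster are shown first, because a member with a matching site in its 3′ UTR could be read directly by them. Sequences are from RefSeq on build GRCm38.p6, on the + strand of chromosome 14, from chr14:115043684-115043706 for miR-17-5p to chr14:115044476-115044496 for miR-92a-3p, and capitals mark the seed. Seeds were shared by miR-17-5p and miR-20a-5p and by miR-19a-3p and miR-19b-3p.
mmu-miR-17-5p: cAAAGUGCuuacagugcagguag
mmu-miR-20a-5p: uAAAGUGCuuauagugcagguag
mmu-miR-18a-5p: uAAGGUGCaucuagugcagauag
mmu-miR-19a-3p: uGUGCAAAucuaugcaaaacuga
mmu-miR-19b-3p: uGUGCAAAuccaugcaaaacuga
mmu-miR-92a-3p: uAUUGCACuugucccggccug

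A site of 8 bases, the complement of the seed followed by A, was searched in the 3′ UTRs of GENCODE M21 (mm10), where 86 of the 91 members had one. Sites of 5 members with values given below are printed, with capitals for the 8 bases. Dock4, a guanine nucleotide exchange factor for Rac, has its miR-17 site at base 76 of a 3′ UTR of 2209 bases. Slc7a2, a transporter of cationic amino acids, and Ephb2, an ephrin receptor, each have sites of 2 families, and those of Igf1 (insulin-like growth factor 1) and Pdzd2 are for miR-19 and miR-92.
Dock4, miR-17 family: atttagtgtagGCACTTTAaat
Slc7a2, miR-17 family: caactttagcaGCACTTTAaca
Slc7a2, miR-18 family: aggaaatactcGCACCTTAcct
Ephb2, miR-18 family: ccataggataaGCACCTTAccc
Ephb2, miR-92 family: ccacaagagccGTGCAATAatg
Igf1, miR-19 family: ctacatgtgcaTTTGCACAtgc
Pdzd2, miR-92 family: taaaagagtaaGTGCAATAata

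Promoters, from 250 bases before to 50 after the start of the gene in RefSeq, could be matched for 67 members. Those of Klk1 (chr7:44225110-44225409, + strand), Sprr2d (chr3:92338890-92339189, + strand) and Dock4 (chr12:40445803-40446102, + strand) on GRCm38.p6 are shown, since Klk1 and Sprr2d had some of the largest differences between samples and Dock4 shares its start region with another member. Capitals mark the letters of a searched motif, here TGACCTT (the reverse complement of AAGGTCA, the NR5A1 motif) in Klk1 and AACAAT (the SOX motif) in Dock4, and the promoter of Sprr2d held none of the searched letters.
Klk1: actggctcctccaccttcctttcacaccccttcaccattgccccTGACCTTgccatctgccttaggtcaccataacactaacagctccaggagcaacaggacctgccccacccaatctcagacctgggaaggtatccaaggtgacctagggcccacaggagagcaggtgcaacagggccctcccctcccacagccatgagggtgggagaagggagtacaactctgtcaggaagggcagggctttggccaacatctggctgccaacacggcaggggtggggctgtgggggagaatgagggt
Sprr2d: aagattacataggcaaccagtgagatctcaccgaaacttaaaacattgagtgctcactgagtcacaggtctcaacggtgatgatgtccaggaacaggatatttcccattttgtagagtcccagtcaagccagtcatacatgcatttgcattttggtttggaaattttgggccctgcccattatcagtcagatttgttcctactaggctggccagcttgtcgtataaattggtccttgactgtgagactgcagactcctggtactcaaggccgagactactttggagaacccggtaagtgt
Dock4: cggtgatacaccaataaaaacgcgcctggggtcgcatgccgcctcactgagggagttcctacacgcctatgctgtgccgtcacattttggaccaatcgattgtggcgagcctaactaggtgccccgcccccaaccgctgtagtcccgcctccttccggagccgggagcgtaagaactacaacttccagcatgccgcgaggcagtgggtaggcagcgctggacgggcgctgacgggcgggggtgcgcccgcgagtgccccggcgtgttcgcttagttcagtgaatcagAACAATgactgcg

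The members were mostly protein-coding genes of moderate level. Protein-coding genes made up 86 of the 91, and 5 members lay on the X chromosome. In XY control pre-supporting cells 51 members had at least 50 CPM and 19 at least 100 CPM, and each member rested on at least 172 UMIs there. The highest levels were those of Actr6 (chr10:89711971-89732295), a subunit of a chromatin-remodelling complex that deposits the histone variant H2A.Z, at 429.5 CPM, of Itga6 (chr2:71745616-71858416), an integrin subunit of laminin receptors, at 399 CPM, and of Dock4 (chr12:40445952-40846874) at 378 CPM. These are levels of transcript ends, which a 3′ kit counts without regard to gene length. The same genes stood at 109, 126 and 102 CPM in XY control Sertoli cells, by the rule of choice.

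The fall that chose the genes ranged widely, and 22 members had at least 5 times more in pre-supporting cells. It was largest for Pcdh20, a protocadherin, at 34.4 against 0.482 CPM, followed by Lrrn3 at 27.1 against 2.17 CPM, Scrt2, a zinc finger repressor of the Snail family, at 23.5 against 1.93 CPM, Adm, the vasodilator peptide adrenomedullin, at 49.6 against 4.33 CPM, and Msx1, a homeobox factor, at 119 against 12.8 CPM. Only 3 members had fewer than 10 UMIs in XY control Sertoli cells, and none had 0. Just inside the threshold were Mettl24 at 3.017 times, Epn3 at 3.021 times and 1500009L16Rik at 3.039 times, and just outside were Tnni3 at 2.995, Ankrd46 at 2.973 and Lor (loricrin) at 2.925 times. Under the level of 20 CPM a further 764 genes passed the fold and were not counted.

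**Figure D1:**
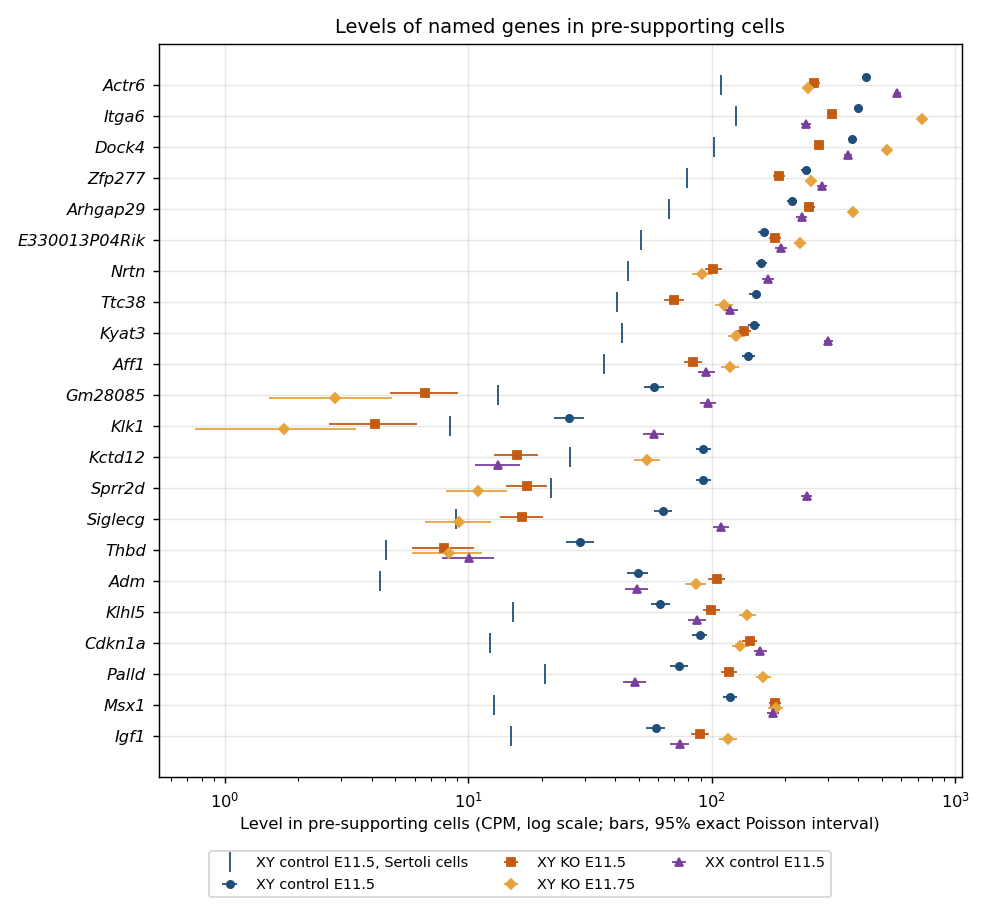
Level of 22 named genes in pre-supporting cells of each sample, in CPM on a log scale, with 95% exact Poisson intervals as bars and the level in XY control Sertoli cells as a vertical tick. The levels of Klk1, Gm28085 and Sprr2d in both XY KO samples lie left of the tick for XY control Sertoli cells, and their levels in the XX control lie right of those in the XY control.

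The summed level of the members was higher in pre-supporting cells than in any other type. For most members pre-supporting cells were the highest of the types compared. Among the 13 cell types named by the authors, considering those with at least 50 cells, the level was highest in pre-supporting cells for 66 of the 91 members in the XY control, against 9.03% of the 6811 genes. It was so for 62 members in the E11.5 KO (9.28% of the genes), 59 in the E11.75 KO (7.41%) and 68 in the XX control (12.3%). The choice used the XY control, in which a gene low in Sertoli cells and present in pre-supporting cells had more room to be highest there, whereas the other 3 samples were not used. Pre-supporting cells were highest in all 4 samples for 51 members and in none for 19. The shares of the genes are not given here, so these 2 counts have no background. The minimum of 50 cells left out the cells named Supporting in the E11.5 KO (24 cells) and the XX control (2 cells). In the E11.75 KO it left out immune cells (38 cells) and the adrenal gland (8 cells). The counts of the samples thus rest on unlike sets of types.

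The remaining members of the XY control had their highest level in various types. Pcdh18, Palld, Emp1 and Pde1a were highest in interstitial cells, and Sema6d, Igf1, Trp53i11 and Csgalnact1 in endothelial cells. Arhgap29, Pdgfc and 6030419C18Rik were highest in supporting-like cells (SLCs), Cdkn1a, Calb1 and Slit2 in mesonephric tubules, and Irf2bpl, B4galt5 and Gem in adrenal cells. Kctd12 and Lmo1 were highest in the cells named Adenosympathic, Lef1 and Magi2 in the mesonephric epithelium, Prrx2 and Ephb2 in the mesonephros, Pdzd2 in the cells named Epithelial and 1500009L16Rik in primordial germ cells (PGCs). By the rule of choice no member could be highest in XY control Sertoli cells. In the E11.75 KO, which the rule did not use, 3 members were highest in the cells named Supporting. No member of the XY control was highest in immune cells, but for Kctd12 the immune level, 96.3 CPM, was close to the 96.6 CPM of Adenosympathic cells. In the E11.5 KO and the XX control Kctd12 was highest in immune cells, at 222 and 440 CPM.

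Some members were close to confined to the supporting lineage in the control samples. With Sertoli cells set aside, 17 members of the XY control had at least 5 times more in pre-supporting cells than in any other type (0.617% of the genes), and 20 did in the XX control (0.646%). In both samples this held for 15 members, namely Nrtn, Ttc38, Mettl24, Adam8, Sprr2d, Taf7l, Ereg, Gm28085, Trpc7, Pitpnm3, 6430710C18Rik, Gm33195, 2210407C18Rik, Klk1 and Scrt2. The share of the genes for both samples together is not given here. Nrtn (neurturin), a ligand of the GDNF family, stood at 159.9 CPM in XY control pre-supporting cells and at no more than 22.6 CPM in any type other than Sertoli cells. Klk1, a kallikrein protease, stood at 26 CPM against at most 1.72 CPM, and in the XX control at 57.8 against at most 2.50 CPM. Taf7l, a paralogue of a TFIID subunit, stood at 69.1 against at most 3.44 CPM in the XY control.

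Summed over all 91 members, the level in pre-supporting cells was 7204 CPM in the XY control, 5639 CPM in the E11.5 KO, 8213 CPM in the E11.75 KO and 7833 CPM in the XX control. In the XY control the next type was that named Epithelial, at 3157 CPM, and PGCs were lowest at 767 CPM. Sertoli cells of the XY control had 1827 CPM, close to the 1895 CPM of the mesonephros. The sum was higher in the E11.75 KO than in the XY control in all 13 types, although the intervals overlapped in the adrenal gland with its 8 KO cells, from 1.11 times in mesonephric tubules and 1.14 times in pre-supporting cells to 1.73 times in SLCs and 2.28 times in Sertoli cells. A higher sum in the E11.75 KO was thus not particular to the pre-supporting cells. In the E11.5 KO the sum was below that of the XY control in 11 of the 13 types, from 0.783 times in pre-supporting cells, 0.788 in mesonephric tubules and 0.790 in immune cells to 0.996 in endothelial cells, and above it in PGCs, at 1.13 times, and in the cells named Supporting.

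In pre-supporting cells of the E11.5 KO the 91 genes were on the whole lower than in the XY control. The level was at least 1.5-fold lower for 37 members, against 6.78% of the 6811 genes, and at least 1.5-fold higher for 6 members, against 1.39% of the genes. The median log2 ratio was -0.46 over the members and -0.10 over the genes, with a range from -3.11 to 1.08. The interval lay wholly below 0 for 59 members and wholly above 0 for 17. The share of the genes with such intervals is not given here, so these 2 counts have no background. These ratios share the XY control pre-supporting level with the rule of choice. In the other types with at least 50 cells the median log2 ratio of the members ran from -0.69 in immune cells and -0.49 in endothelial cells to -0.04 in interstitial cells and 0.10 in PGCs. It lay below the median of the genes in all but the last 2. Many members had few UMIs in some of these types. Over members with at least 50 UMIs in the 2 samples together, the median was 0.25 in immune cells (4 members) and -0.06 in endothelial cells (40 members). The genes stood at -0.13 and -0.05 there. The members' median was -0.22 in the cells named Epithelial (80 members) and -0.23 in the mesonephros (82 members), against -0.11 and -0.08 over the genes. The lower level was thus not particular to pre-supporting cells. Immediate early and stress genes, none of them members, moved with the comparison, since 8 of 18 were at least 1.5-fold lower in pre-supporting cells and 0 higher, with a median log2 ratio of -0.56. Their part in the members' values was not tested. With pre-supporting and Sertoli cells summed into 1 group, the members at least 1.5-fold lower were 19, those higher 17 and the median -0.03. That sum takes in 752 Sertoli cells of the XY control, where the genes were chosen for being low, and 24 of the KO, so its ratios share the values that the choice used.

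At E11.75 the XY KO members spread in both directions. At least 1.5-fold lower than the XY control were 26 members (7.78% of the genes) and at least 1.5-fold higher were 25 (12.5% of the genes). As at E11.5, these ratios share the XY control pre-supporting level with the rule of choice. The median was 0.04 over the members and 0.12 over the genes, and the members ran from -4.30 to 1.59. Scaling by TMM factors moved the median of the genes to -0.06 and that of the members to -0.13, so the sign of the members' median at E11.75 depends on the scaling. Relative to the median gene, the 2 counts were 28 lower and 22 higher.

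Both XY KO samples were at least 1.5-fold lower than the XY control for 21 members, against 2.03% of the genes. These were Actr6, Nrtn, AW551984, Sprr2d, Kctd12, Vav3, Pcdh11x, Sphkap, Pnlip, Siglecg, Orc1, Gm28085, Trpc7, Il15, Myl1, Mon1b, Pcdh20, 2210407C18Rik, 1810065E05Rik, Thbd and Klk1. Of them 20 were highest in pre-supporting cells in the XY control, all but Kctd12, as were 66 of all 91 members, and both measures share the XY control pre-supporting level. Both KO samples are set against the same control, so the count does not stand for independent comparisons.

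Gm28085, Klk1, Sprr2d and Siglecg had the lowest ratios of the 91 at E11.75, and at E11.5 Kctd12, at -2.54, lay between Klk1 and Sprr2d. Gm28085 (chr9:96027101-96040673), a non-coding RNA told apart by strand alone from Xrn1, which it overlaps, stood at 57.8 CPM in the XY control, 6.63 CPM in the E11.5 KO, 2.83 CPM in the E11.75 KO and 96.6 CPM in the XX control, a log2 ratio of -3.11 (95% interval -3.63 to -2.66) at E11.5 and -4.30 (-5.27 to -3.56) at E11.75. Klk1 (chr7:44225360-44229618) stood at 26, 4.15, 1.74 and 57.8 CPM in the same order, with log2 ratios of -2.62 (-3.31 to -2.05) and -3.81 (-5.13 to -2.89). Both KO samples lay below the XY control Sertoli level of these genes, 13.2 and 8.43 CPM.

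Sprr2d (chr3:92339140-92340873), a small proline-rich protein of the cornified envelope of skin, stood at 92.3, 17.4, 10.9 and 245 CPM in the XY control, E11.5 KO, E11.75 KO and XX control. Its log2 ratios were -2.40 (-2.72 to -2.11) and -3.07 (-3.53 to -2.67) in the E11.5 KO and E11.75 KO, whereas that of the XX control was 1.41 (1.28 to 1.53). Siglecg (chr7:43408204-43418358), a sialic acid-binding lectin best known from B cells, stood at 63.0, 16.6, 9.15 and 109 CPM. The 8 immune markers in pre-supporting cells summed to 23.1, 6.97, 3.27 and 19.2 CPM in the same order and so were also lower in the KO samples. In immune cells themselves Siglecg stood at 12 CPM in the XY control, from 7 UMIs, below its level in pre-supporting cells. The part of immune RNA in the Siglecg values was not tested.

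Actr6, the member of the highest level, showed the same order at a smaller size. It stood at 429.5 CPM in the XY control, 264 CPM in the E11.5 KO, 248 CPM in the E11.75 KO and 577 CPM in the XX control, with log2 ratios of -0.70 (-0.79 to -0.62), -0.79 (-0.89 to -0.69) and 0.43 (0.36 to 0.49). Its 2 runs gave 438 and 420.3 CPM in the XY control and 259 and 269 CPM in the E11.5 KO, but these are technical runs of 1 pool each and do not show the spread between pools. Between the runs of XY control pre-supporting cells 1 member was at least 1.5-fold apart, against 0.294% of the genes. This count was made for the XY control only. In the XX control Actr6 stood at 592 and 564 CPM in the runs, but some members lay further apart. Calb1 stood there at 49.5 and 20.5 CPM, Mon1b at 25.95 and 51.9 CPM and Klk1 at 45.25 and 69.8 CPM. In the E11.5 KO the runs gave 5.57 and 2.85 CPM for Klk1. The members most like Actr6 over the 13 types of the XY control were Aldh1b1, Nrtn and 1810065E05Rik, with a Spearman correlation of 0.813, 0.786 and 0.747. Types of 1 library share their depth and free RNA, and these values are a description.

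Of the 21 members, 6 were at least 1.5-fold higher in the XX control and 4 at least 1.5-fold lower, against 14 and 18 of all 91 members and 0.852% and 6.77% of the genes. The 6 were Sprr2d, Pnlip (pancreatic lipase), Siglecg, Gm28085, 2210407C18Rik and Klk1. The 4 were AW551984, Kctd12, 1810065E05Rik and Thbd. Kctd12 (chr14:102976581-102982637), an auxiliary subunit of GABA-B receptors, stood at 92.3 CPM in the XY control and at 15.8, 54.3 and 13.3 CPM in the E11.5 KO, E11.75 KO and the XX control. Thbd (chr2:148404466-148408188), the thrombin receptor thrombomodulin, stood at 28.7, 7.96, 8.28 and 10.0 CPM. For these 4 genes the XY control alone was high, which the other 6 did not share.

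Both KO samples were at least 1.5-fold higher for Msx1, Palld, Klhl5, Igf1 and Adm, 5 members against 0.587% of the genes. Adm (chr7:110627661-110629820) stood at 49.6 CPM in the XY control, 104.8 CPM in the E11.5 KO, 85.9 CPM in the E11.75 KO and 49.1 CPM in the XX control, with log2 ratios of 1.08 (0.90 to 1.26) and 0.79 (0.59 to 0.997) in the KO samples. Msx1 (chr5:37820485-37824583) stood at 119 CPM in the XY control and at 182, 183 and 179 CPM in the other 3 samples. Igf1 (chr10:87858265-87937042) stood at 58.7, 89.7, 117 and 73.7 CPM. Palld, an actin-binding scaffold, stood at 73.4, 117, 163 and 48.2 CPM. Msx1 was thus higher in every other sample, while Palld was lower in the XX control than in the XY control. Cdkn1a, the cyclin-dependent kinase inhibitor p21, was at least 1.5-fold higher at E11.5 and in the XX control, at 89.0, 143, 131 and 158 CPM.

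**Figure D2:**
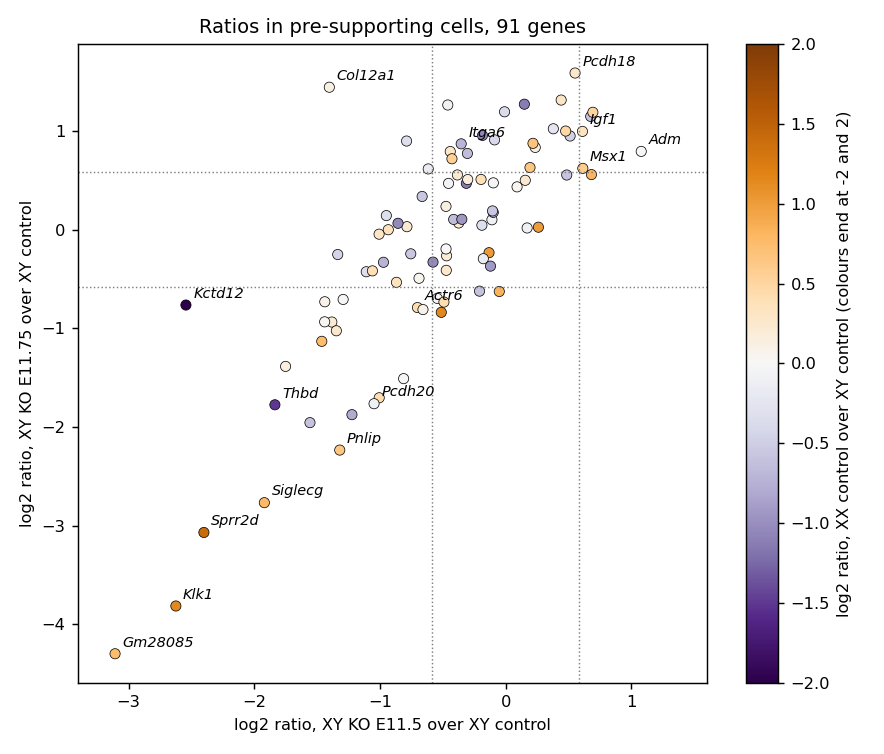
Log2 ratio to the XY control in pre-supporting cells for the E11.5 KO (x axis) and the E11.75 KO (y axis), 1 point per gene of the 91, coloured by the log2 ratio of the XX control, with dotted lines at 1.5-fold. Both axes share the XY control, and Gm28085, Klk1, Sprr2d and Siglecg lie at the lower left, with XX control ratios above 0.

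Of the KO samples, 17 members were at least 1.5-fold higher at E11.75 only (11.6% of the genes), and 13 at least 1.5-fold lower at E11.5 only (4.45% of the genes). Itga6 was among the first, at 399 CPM in the XY control, 312 CPM in the E11.5 KO, 728 CPM in the E11.75 KO and 243 CPM in the XX control, with log2 ratios of -0.35 (-0.44 to -0.27), 0.87 (0.80 to 0.94) and -0.71 (-0.80 to -0.63). Pcdh18, a protocadherin, had the highest log2 ratio at E11.75, 1.59, and stood at 74.1, 109, 222 and 89.2 CPM. Col12a1, a fibril-associated collagen, Fam129a and Magi2 lay on opposite sides of the XY control in the 2 KO samples. Col12a1 (chr9:79598991-79718831) stood at 72.6, 27.4, 197 and 78.6 CPM, Fam129a at 39.3, 22.7, 73.2 and 31.0 CPM, and Magi2 at 31.3, 20.4, 47.9 and 27.9 CPM. For all 3 genes the E11.5 KO was the lowest and the E11.75 KO the highest of the 4 samples.

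Against the XY control, the XX control was at least 1.5-fold higher for 14 members, with 0.852% of the genes as background, and at least 1.5-fold lower for 18, with 6.77% as background. The ratios share the XY control pre-supporting level with the rule of choice, and the background genes were not chosen on their fall. The median log2 ratio was 0.05 over the members and -0.10 over the genes, with a range from -2.79 to 1.41. Beside Sprr2d and Klk1, the highest ratios were those of Taf7l, at 69.1 CPM in the XY control and 153 CPM in the XX control, and of Kyat3, a kynurenine aminotransferase, at 148 and 301 CPM. The lowest were those of Kctd12, Thbd, Lancl3, at 95 and 42.9 CPM, and Slit2, a secreted guidance ligand, at 36.7 and 16.7 CPM. The XX cells were deeper, and with all cells thinned to 3000 UMIs before summing the median was 0.03. The 6 genes that the rule did not allow are on the ovarian or bipotential side, and Fst (follistatin) stood at 117, 111, 402 and 237 CPM in the XY control, E11.5 KO, E11.75 KO and XX control. Wnt4 stood at 539, 712, 753 and 756 CPM, and so was lower in the XY control than in the other samples.

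Adrenal markers moved with the pre-supporting comparison, at a summed 110.0 CPM in the XY control, 38.1 CPM in the E11.5 KO, 27.0 CPM in the E11.75 KO and 165 CPM in the XX control over 6 markers, with Cyp21a1 at 0 in both KO samples. This is the order shown by Klk1, Sprr2d and Gm28085. In adrenal cells themselves Klk1 stood at 1.46 CPM in the XY control, Sprr2d at 3.66 CPM and Gm28085 at 0 UMIs, which allows up to 2.20 CPM, all under their level in pre-supporting cells. In adrenal cells of the XX control they stood at 0.817, 35.1 and 2.45 CPM, and for Sprr2d this was the highest level outside the supporting lineage. The 9 interstitial markers summed to 445, 577, 601 and 509.8 CPM, and the 8 erythroid markers to 2622, 1123, 1581 and 810.3 CPM. The erythroid sums also follow the filtering of cells. The paper's limit on beta globin per cell was highest for the XY control and lowest for the E11.5 KO, and the XX control was filtered by clusters. The part of adrenal, interstitial and erythroid RNA in the members' values was not tested.

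Members were also read by functional class. Of 8 secreted ligands and growth factors, Adm and Igf1 were at least 1.5-fold higher in both KO samples and Nrtn and Il15 at least 1.5-fold lower in both. Il15, a cytokine of lymphocytes, stood at 40.1, 19.9, 12.2 and 54.3 CPM in the XY control, E11.5 KO, E11.75 KO and XX control. Slit2 stood at 36.7, 40.6, 88.5 and 16.7 CPM, Pdgfc, a platelet-derived growth factor, at 107, 92.6, 69.3 and 70.8 CPM, and Angptl4, an inhibitor of lipoprotein lipase, at 90.2, 35.7, 75.6 and 66.4 CPM. Ereg, the epidermal growth factor receptor ligand epiregulin, stood at 60.3, 52.6, 85.6 and 79.0 CPM and passed 1.5-fold in no comparison of pre-supporting cells with the XY control. The summed level of the ligands was 602, 537, 625 and 580.1 CPM, while its members differed in opposite directions.

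Of 11 adhesion and guidance molecules at the cell surface, 5 were at least 1.5-fold lower in the E11.5 KO and none higher, while 4 were higher and 3 lower at E11.75. Over all 91 members 40.7% were lower at E11.5, against 6.78% of the genes, and at E11.75 27.5% were higher and 28.6% lower, against 12.5% and 7.78% of the genes. Pcdh20 (chr14:88464743-88471396) stood at 34.4 CPM in the XY control, 16.6 CPM in the E11.5 KO, 10.0 CPM in the E11.75 KO and 32.4 CPM in the XX control. Pcdh11x, a protocadherin on the X chromosome, stood at 83.1, 33.8, 50.8 and 81.7 CPM, and Pcdh18 was highest at E11.75. Sema6d, a semaphorin, stood at 94.2, 76.3, 161 and 60.3 CPM and Ephb2 at 24.5, 31.9, 49.7 and 20.6 CPM. Slitrk1 and Lrrn3, leucine-rich repeat proteins of neurons, stood at 30.4 and 27.1 CPM in the XY control, 15.1 and 17.1 CPM in the E11.5 KO, 29.4 and 34.2 CPM in the E11.75 KO and 37.01 and 18.3 CPM in the XX control, so neither was low at E11.75.

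Of 10 members that act in transcription and chromatin, the median log2 ratio was -0.36 in the E11.5 KO, 0.08 in the E11.75 KO and 0.32 in the XX control. Lef1, a transcription factor of the WNT pathway, stood at 51.5, 59.9, 94.4 and 82.4 CPM in the XY control, E11.5 KO, E11.75 KO and XX control. Scrt2 stood at 23.5, 17.4, 38.6 and 34.5 CPM. Aff1, a part of the super elongation complex, stood at 141, 83.8, 119 and 95 CPM, and Prrx2, a homeobox factor, at 45.7, 35.8, 49.0 and 23.7 CPM. Lef1 and Msx1 were thus lower in the XY control than in the other samples, while Aff1 was highest there.

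Of 8 members in GTPase signalling and the cytoskeleton, Dock4 stood at 378, 276, 522 and 363 CPM, with log2 ratios of -0.45 (-0.54 to -0.37), 0.47 (0.39 to 0.55) and -0.06 (-0.14 to 0.02). Vav3, a guanine nucleotide exchange factor, stood at 84.0, 24.9, 32 and 93.3 CPM, and Arhgap29, a GTPase-activating protein, at 214, 252, 381 and 234 CPM. At E11.75 Vav3 was lower than in the XY control, while Dock4 and Arhgap29 were higher. Cell cycle members were Cdkn1a, Cdkn1b and Orc1. Cdkn1b (p27) stood at 132, 152, 205 and 208 CPM, and Orc1, a subunit of the origin recognition complex, at 60.5, 23.7, 29.6 and 72.5 CPM. Both inhibitors were lowest in the XY control, and Orc1 was lower in both KO samples.

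The guanylate-binding proteins Gbp2 and Gbp2b lie 1423 bases apart on chromosome 3 and are close paralogues, so the split of their reads is uncertain. Gbp2 stood at 56.7, 40.3, 34.0 and 76.2 CPM and Gbp2b at 72.2, 69.7, 46.6 and 129 CPM, both lowest in the E11.75 KO and highest in the XX control. Of 9 metabolic enzymes and transporters, Slc7a2 stood at 123, 122, 282 and 95.7 CPM and Pnlip at 78.4, 31.4, 16.6 and 122 CPM. Csgalnact1, an enzyme of chondroitin sulphate synthesis, stood at 29.3, 39.8, 72.8 and 36.1 CPM. Kyat3 stood at 148, 135, 126 and 301 CPM, which is high in the XX control only.

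Pathway lists of 16 kinds held few members, and genes that the rule did not allow could not be among them. Fst, Bmp2, Wnt4 and Rspo1, with folds of 27.7, 12.3, 5.40 and 3.64, are in the granulosa, WNT or TGF-beta lists and are not in the counts below. The shares over all genes at E11.75 were 12.5% higher and 7.78% lower, and at E11.5 1.39% higher and 6.78% lower. Granulosa and ovary genes were 12 among the 6811 genes, of which Cdkn1b, Msx1 and Lef1 were members, and 1 was at least 1.5-fold higher and 2 lower in the E11.5 KO, 5 higher and 0 lower in the E11.75 KO. Of 21 WNT pathway genes only Lef1 was a member, and 7 were at least 1.5-fold higher and 0 lower at E11.75, against 1 and 1 at E11.5. Of 13 genes of the IGF axis only Igf1 was a member, and 9 were higher and 1 lower at E11.75, against 4 and 2 at E11.5. Of 35 matrix and adhesion genes Itga6 and Col12a1 were members, and 20 were higher and 0 lower at E11.75, against 7 and 4 at E11.5. The remaining lists held Cdkn1a and Cdkn1b among 42 cell cycle genes and no member in 11 lists, among them the Notch, Hedgehog, FGF, TGF-beta and retinoic acid lists.

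Sertoli cells of the E11.75 KO showed the same fall at a smaller size. In that sample, which the rule did not use, 88 of the 91 members were lower in Sertoli than in pre-supporting cells, and the interval lay wholly below 0 for 80 of them. For these 2 counts the share over the genes is not given here. The median fall was 2.05-fold, against 3.96-fold in the XY control, where it chose the genes. At least 3 times lower in Sertoli cells were 20 members, against 0.587% of the genes, and 10 members with a prior of 5 UMIs in place of 0.5. The median log2 ratio of Sertoli over pre-supporting cells was -1.03 over the members and 0.02 over the genes. Cell names came from clusters of these same cells by their most variable genes, so the difference between the 2 types is a description.

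The genes differed in how much of the fall they showed. Fam129a, Lrrn3, Gm33195 and Calb1 were 7.92, 7.83, 6.93 and 6.32 times lower in Sertoli than in pre-supporting cells of the E11.75 KO. Pcdh20, with the largest fall in the XY control, was 2.97 times lower, at 10.0 and 2.92 CPM. Msx1 stood at 183 and 109 CPM, Adm at 85.9 and 45.8 CPM, and Kyat3 at 126 and 119 CPM. These last 3 genes stood at 12.8, 4.33 and 42.6 CPM in XY control Sertoli cells, all below the KO values. Klk1 had 0 UMIs in KO Sertoli cells, which allows up to 2.92 CPM. Sprr2d, Gm28085 and Tmem171 were not lower, and Sprr2d stood at 10.9 CPM in pre-supporting and 21.4 CPM in Sertoli cells, the 1 member whose interval lay wholly above 0.

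**Figure D3:**
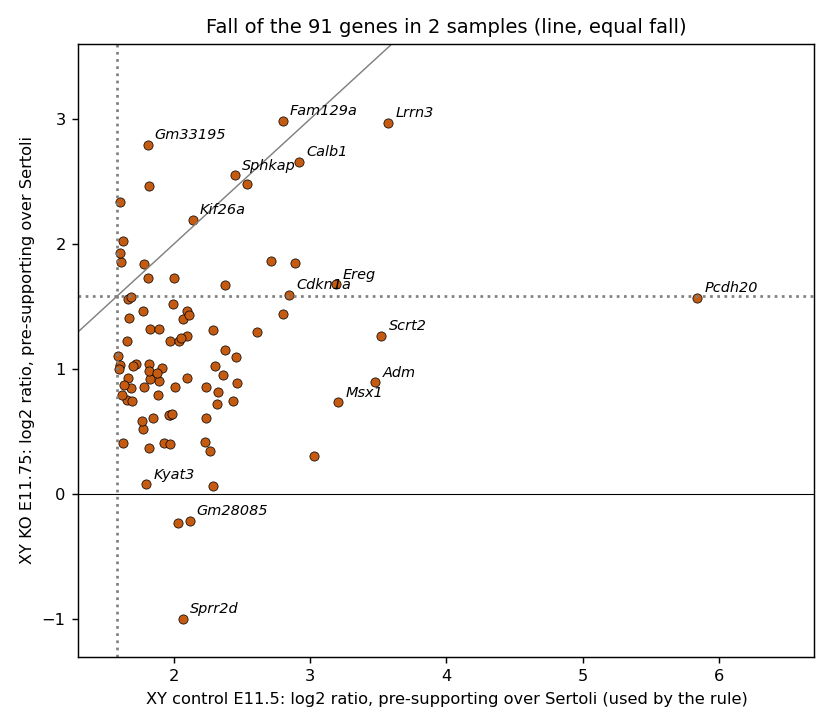
Log2 ratio of pre-supporting over Sertoli cells in the XY control (x axis, the values that chose the genes) and in the E11.75 KO (y axis), 1 point per gene of the 91, with dotted lines at 3-fold and a solid line of equal fall. Most points lie below the line of equal fall, 20 genes reach 3-fold in the E11.75 KO, and Sprr2d, Gm28085 and Tmem171 lie below 0.

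Set against XY control Sertoli cells, those of the E11.75 KO had at least 1.5-fold more of 57 members (18.8% of the genes) and at least 1.5-fold less of 9 (8.81% of the genes). The median log2 ratio was 0.89 over the members and 0.15 over the genes. The choice favoured genes with low values in XY control Sertoli cells, and these ratios share those values. The summed level in the 24 cells named Supporting of the E11.5 KO was 4738 CPM, 2.59 times the XY control, and pre-supporting cells there had only 1.19 times more (1.11 to 1.28). In E11.75 KO gonads pre-supporting cells had 1.97 times more (1.91 to 2.03) and in the XY control 3.94 times more (3.85 to 4.04). The 12 Sertoli markers were also lower in the Sertoli cells of the KO samples, at a summed 1229 CPM at E11.5, with Sox8 and Sox10 at 0, and 1932 CPM at E11.75, against 3063 CPM in the XY control. Their part in the members' values was not tested.

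Single cells were compared at equal depth. Every cell was thinned to 3000 UMIs, which dropped the cells below that depth, 173 of the XY control, 54 of the E11.5 KO, 93 of the E11.75 KO and 3 of the XX control among pre-supporting cells. Members gave on average 0.726% of the UMIs of a pre-supporting cell in the XY control, 0.561% in the E11.5 KO, 0.825% in the E11.75 KO and 0.776% in the XX control. In Sertoli cells they gave 0.178% in the XY control (701 cells), 0.463% in the E11.5 KO (24 cells) and 0.432% in the E11.75 KO (163 cells). A thinned pre-supporting cell had UMIs of 15.6, 12.9, 17.1 and 16.1 members on average, and a Sertoli cell of the XY control of 4.61 members, of the E11.75 KO of 9.72. The distributions of pre-supporting and Sertoli cells overlapped little in the XY control, where the genes were chosen for lying apart in these same cells, and broadly in the KO samples, which the choice did not use. Unthinned, the shares of all UMIs were 0.720%, 0.564%, 0.821% and 0.783% in pre-supporting cells.

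Pre-supporting cells with and without a UMI of Sox9 differed in their shares of UMIs from the members, in an order that differed between samples. Only in the E11.5 KO did the order change with depth. In the XY control, whose cells were used to choose the genes, the mean share at 3000 UMIs was 0.709% in 350 thinned cells with a Sox9 UMI and 0.731% in 1118 cells without, and 53 of the 91 members, 58.2%, were lower with Sox9, against 51.0% of the genes. It was 0.681% and 0.733% at 2000 UMIs and 0.664% and 0.705% at 5000 UMIs. These are means over cells of 1 library, and the differences were not tested. For both KO samples, which the choice did not use, the cells with Sox9 were higher at 3000 UMIs, at 0.623% against 0.558% at E11.5 and 0.882% against 0.815% at E11.75, but at 5000 UMIs the order at E11.5 was the opposite, 0.538% against 0.574%. In the E11.75 KO the cells with Sox9 were also higher at 2000 UMIs, 0.896% against 0.824%, and at 5000 UMIs, 0.841% against 0.7955%. XY control cells with a UMI of Sry, the gene that starts testis determination, had 0.752% (67 cells) and those without 0.725%. A UMI of Sox9 was found in 23.8% of thinned pre-supporting cells of the XY control and 87.0% of its Sertoli cells, against 1.08% of PGCs, which should lack it. Median depths were 4522, 5096 and 11990 UMIs. In the XX control 8 thinned pre-supporting cells had a Sox9 UMI, with a mean share of 0.433%, against 0.784% in the other 341, and at 2000 UMIs the 4 cells with Sox9 had 0.650% against 0.791%.

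The shares of cells with a UMI followed the summed levels. Actr6 was found in 65.1% of thinned pre-supporting cells of the XY control, 49.1% in the E11.5 KO, 46.8% in the E11.75 KO and 77.9% in the XX control, against 17.99% of PGCs of the XY control. Dock4 was found in 63.5%, 52.8%, 76.2% and 58.2%, against 1.62% of PGCs. Klk1 was rare, in 5.72% of pre-supporting cells of the XY control, 0.971% of the E11.5 KO, 0.602% of the E11.75 KO and 10.3% of the XX control. It was in 0 of 556 PGCs of the XY control, which allows up to 0.540%. In the KO samples it was in 0 of 158 and 0 of 151 PGCs, which allow up to 1.90% and 1.99%, so its share in KO pre-supporting cells did not exceed that limit. Sprr2d was found in 8.11%, 2.43%, 1.80% and 17.2% and in 0.180% of PGCs. Pcdh20 was in 9.13% of XY control pre-supporting cells and in 0.285% of its Sertoli cells. Unthinned, these cells had Klk1 in 7.74%, 1.48%, 0.866% and 32.7%, Actr6 in 74.9%, 65.1%, 61.7% and 99.1%, Dock4 in 74.8%, 72.2%, 85.1% and 92.9%, and Sprr2d in 10.2%, 2.95%, 2.60% and 30.1%.

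Matches to the seeds of the deleted cluster were about as frequent among the members as among the other genes. A site of 8 bases for the miR-17, miR-18, miR-19 or miR-92 family was in the 3′ UTR of 14 of the 86 members, 16.3% (9.20 to 25.8), of 14.4% of the 6811 genes and of 12.7% of all genes with a 3′ UTR. The median 3′ UTR was 1762 bases in members and 1408 in the 6811 genes. Members with a site had a median log2 ratio of -0.31 in the E11.5 KO and 0.53 in the E11.75 KO, and the 72 without a site -0.47 and -0.02. In the 6811 genes the medians with and without a site were -0.11 and -0.10 at E11.5 and 0.33 and 0.08 at E11.75. Slc7a2 (1.19), Mbnl3 (1.26), Ephb2 (1.02), Igf1 (0.99), Pdzd2 (0.95) and Magi2 (0.61) were the 6 of 14 with a site that were at least 1.5-fold higher at E11.75, against 19 of the 72 members without a site and 222 of the 965 genes with one. Pcdh11x, with 2 sites of the miR-92 family, was the 1 member with a site that was at least 1.5-fold lower there, at -0.71.

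Promoters of the members held the searched motifs at rates near those of other genes, and a match is a description of letters only. The motifs were searched on both strands over 300 bases. The SOX motif AACAAT was in 5.97% of the 67 members, 6.71% of the 5424 promoters of the 6811 genes and 8.61% of all 15002 promoters. The NR5A1 motif AAGGTCA was in 1 member, Klk1, or 1.49%, and in 3.48% and 4.52% of the others. The TCF/LEF motif CTTTGA was in 14.9%, 13.3% and 15.7%, and the GATA motif GATAAG in 5.97%, 5.66% and 7.21%.

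Several members are neighbours in the genome. Dock4 and Zfp277, a zinc finger gene, start 50 bases apart on opposite strands of chromosome 12. Zfp277 stood at 244, 188, 256 and 284 CPM in pre-supporting cells of the XY control, E11.5 KO, E11.75 KO and XX control, and so differed less between the samples than Dock4 did. Drp2 and Taf7l lie 3545 bases apart on the X chromosome, and Kyat3 lies 63043 bases from Gbp2 on chromosome 3. Kyat3, Gbp2 and Gbp2b were all higher in the XX than in the XY control, with log2 ratios of 1.02, 0.43 and 0.84. Vav3 and Ntng1 lie 94342 bases apart on chromosome 3, and differed in direction at E11.75, at -1.39 and 0.51.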

How the data were processed

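Single-cell RNA-seq of 4 pooled samples was analysed from UMI counts of 52745 cells and 21495 genes, deposited by the authors as raw counts with 1 cell type name per cell. Per the methods and the submitters' processing notes, the authors counted reads with Cell Ranger 6.1.1 against mm10 with an added exon of Sry. They merged the runs of a sample, and in the XY samples removed cells by limits on mitochondrial and globin UMIs. For the XX control whole clusters of poor quality were left out instead, so the XX and XY controls were not filtered alike. Doublets were removed, the samples were integrated with Seurat and clusters were named by marker genes. The deposited percent of mitochondrial and beta globin UMIs per cell was used in no result.

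For each sample and cell type the UMIs were summed (Python 3.11.15, numpy 2.4.6, pandas 2.3.3, scipy 1.17.1) and divided by the total UMIs of the cells, which were 7884234 for XY control pre-supporting cells and 4152994 for Sertoli cells. Ratios used sums with 0.5 UMI added. Intervals are 95% and exact: Poisson for levels and for mean shares per cell, binomial for ratios of sums, Clopper-Pearson for shares. A count of 0 allows up to 3 counts. No test between groups was made, since each group had 1 sample, and "higher" and "lower" stand for the measured values. TMM factors came from edgeR 4.0.16 in R 4.3.3. The sums, ratios and intervals were tested on simulated data.

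Where a count has a background, it is the 6811 genes of at least 20 CPM in XY control pre-supporting cells that the rule could choose. The 91 members, the pathway lists and the functional classes were chosen with earlier results of these data known. Named genes were the 10 highest levels, the 10 largest folds, the 6 highest and 6 lowest ratios in the E11.5 KO whose sign held at E11.75, the 4 highest and 4 lowest ratios of the XX control, up to 4 members per pathway list, the 3 genes on either side of the fold of 3 and the 3 members most like the highest one over cell types. Genes described by class or by neighbourhood beyond these were chosen after their values were seen. Alternatives were other folds and level minimums, TMM factors, totals without abundant genes, another prior count, means over cells, cells of at least 5000 UMIs, single runs and pre-supporting with Sertoli cells. No sample was left out.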

Additional observations from a re-analysis of the deposited data

Results flagged for a closer look

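In pre-supporting cells, 3 of the 91 genes were at least 1.5-fold below the XY control in the E11.5 KO and at least 1.5-fold above it in the E11.75 KO. The log2 ratios were -1.40 and 1.44 for Col12a1, -0.79 and 0.90 for Fam129a, and -0.62 and 0.61 for Magi2. Both ratios of a gene use the same XY control, each KO age is 1 sample, and the difference was not tested. The share of the genes that lay so is not given here, so the count has no background.

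Of the 3 members that stood higher in Sertoli than in pre-supporting cells of the E11.75 KO, Sprr2d was the 1 whose interval lay wholly above 0, with a log2 ratio of 0.99, whereas the rule required the opposite in the XY control. It rests on 50 UMIs in pre-supporting cells and 22 UMIs in Sertoli cells, and the difference between the samples was not tested.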

How the results depend on the processing

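The number of members was 91 and became 262 with a fold of 2, 44 with a fold of 4 and 51 with a minimum of 50 CPM. Either run of the XY control alone gave 100 members, of which 85 and 80 were shared with the 91. With run 1 of the XY control the members at least 1.5-fold higher in the E11.5 KO were 3 in place of 6. With pre-supporting and Sertoli cells summed together, the median log2 ratio of the members was -0.03 in the E11.5 KO, 0.36 in the E11.75 KO and 0.50 in the XX control. The members at least 1.5-fold higher were then 17 in the E11.5 KO and 38 in the XX control, and those lower were 19, 16 and 5 in the 3 comparisons. With a prior of 5 UMIs, 10 in place of 20 members were at least 3 times lower in Sertoli than in pre-supporting cells of the E11.75 KO. Counting sites of 7 bases too, 32.6% of the members had a seed site, against 36.5% of the 6811 genes. Why these values moved was not tested, other than that the alternatives change which genes or cells enter. The other 156 values of the comparisons under the alternatives stayed within the limits set for no change, but medians near 0 changed sign within them. The members' median in the E11.75 KO, 0.04, became -0.13 with TMM factors, -0.02 with run 1 of the XY control, -0.10 with members chosen in run 2 and -0.07 relative to the median gene, and that in the XX control, 0.05, became -0.02 with run 1. Of the ratios of single named genes under the alternatives, 20 no longer reached 1.5-fold, 6 newly reached it, 5 moved otherwise and 329 did neither. Thinning the cells to 3000 UMIs and the alternatives for Sertoli cells of the E11.75 KO were chosen after seeing the data.

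With 1 pool of embryos per group, differences between pools, litters and runs cannot be told apart from those between genotypes, sexes or ages. The E11.5 KO had 24 and the XX control 2 cells named Supporting, so their values for single genes have wide intervals. The E11.75 KO had 168 such cells and 1026574 UMIs in them, and a gene at 0 there could stand at up to 2.92 CPM. No paired analysis was possible because each group had 1 sample.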

Other observations

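Lor, which encodes loricrin of the cornified envelope, missed the fold of 3 at 2.925 times. It lies 256 kb from Sprr2d on chromosome 3 and, among types with at least 50 cells, was highest in pre-supporting cells in all 4 samples. Its level there was 444.7 CPM in the XY control, 109.8 CPM in the E11.5 KO, 58.0 CPM in the E11.75 KO and 659 CPM in the XX control, with log2 ratios of -2.02 (-2.14 to -1.90), -2.94 (-3.12 to -2.76) and 0.57 (0.50 to 0.63). This is the order of Sprr2d, Klk1, Siglecg and Gm28085. In Sertoli cells Lor stood at 152 CPM in the XY control and 55.5 CPM in the E11.75 KO. It was picked out after its values were seen.

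Genes left out of the members by name also differed between samples. In pre-supporting cells of the XY control, E11.5 KO, E11.75 KO and the XX control, Bmp2 stood at 33.9, 59.7, 154 and 39.7 CPM, Rspo1, a secreted activator of WNT signalling, at 130.1, 237, 195 and 171 CPM, and Lhx9 at 257, 331, 414 and 254 CPM. Foxl2, the granulosa transcription factor, stood at 10.2, 13.4, 45.1 and 16.7 CPM, under the minimum of 20 CPM in the XY control.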
